A study of Mus musculus with 36 samples.

Results

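The comparison covered 9 of the 36 tumors of the series: 6 tumors labelled Bptf KD and 3 labelled Control, all grown from the mouse mammary carcinoma line 67NR in BALB/c mice and chosen by their labels alone. 67NR is a line that forms primary tumors but does not metastasize. Cells of both groups carried a retroviral shRNA vector, with shRNAs against Bptf in one group and control shRNAs in the other. They were placed in a mammary fat pad (the fourth) of female mice aged 6 to 8 weeks, and the tumors were taken on day 21. A pair of further sets of 6 Bptf KD and 3 Control tumors were used for contrast. The first was 67NR tumors of NSG mice, a strain with no T, B or NK cells, also taken on day 21. The second was tumors of the related line 66cl4 in BALB/c mice, taken on day 28. The remaining set, 6 Bptf KD and 3 Control tumors of 66cl4 in NSG mice, was also taken on day 28. It entered the check of genes that part the cell lines, the correlations with 66cl4, some ranges of single genes and the fit of all 36 tumors. The contrast of the label's effect between the lines used BALB/c tumors only. Which of the Bptf shRNAs each tumor carried is not in the labels and was not used. The tumors of a group may come from the same transduced cells, so the p-values below reflect the spread between tumors. All values are log2 RMA values of Affymetrix arrays, with each of 12394 genes read from 1 probe set.

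BPTF is the largest subunit of NURF, a complex that slides nucleosomes along DNA and so alters which promoters and enhancers are open. BPTF binds histone marks of active genes through its PHD finger and bromodomain, and the ATPase subunits, encoded by Smarca1 and Smarca5, do the moving. In tumors the complex has been studied for its part in proliferation and in the expression of genes that immune cells read. A bulk tumor array sums the RNA of tumor cells and of the host cells among them, so that fewer cells of a type and less RNA per cell cannot be told apart.

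The arrays had medians of 7.03 to 7.21 and correlated with each other at 0.930 to 0.996. RNA integrity was read from the actin control probe sets, whose 3′ value exceeded the 5′ value by a mean of 1.26 in the tumors labelled BPTF KD and 1.32 in the controls (exact permutation p = 0.869, two-sided, 84 splits), with BPTF KD 1 highest at 2.11. Some labelled tumors stood apart. In BPTF KD 1 and 3, 1760 and 2221 genes lay more than 1 log2 unit from the control mean, against 316 to 706 in the other 4 labelled tumors and 4 to 12 in the controls. The tumors were set against 56 genes higher by over 1 log2 unit in every 67NR tumor of NSG mice than in any 66cl4 tumor. A further 49 genes were higher in 66cl4 in the same way. The 67NR reference held tumors of NSG mice only, so cell line and host cannot be told apart in these counts. BPTF KD 3 was on the 67NR side for 28 of the 56 and 32 of the 49, and BPTF KD 1 for 40 and 35. BPTF KD 4 and 6 were there for 37 and 35 of the 56 and for 38 of the 49 each, BPTF KD 2 and 5 for 40 of the 56 each and for 46 and 43 of the 49, and the controls for 39 to 40 and 43 to 45. Over all genes, BPTF KD 1 correlated at 0.951 with the mean of 66cl4 control tumors of NSG mice and at 0.942 with that of 67NR control tumors of NSG mice. For BPTF KD 3 the values were 0.917 and 0.918. The controls were at 0.950 to 0.955 with 66cl4 and at 0.982 to 0.985 with 67NR. The other 4 labelled tumors were at 0.930 to 0.951 and at 0.959 to 0.977.

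Bptf, the targeted gene, did not separate the tumors labelled BPTF KD from the controls on any of its 4 probe sets. On its brightest probe set (1456615_a_at) the labelled tumors were at 9.82, 10.68, 10.12, 9.83, 10.48 and 8.34, against 9.73, 9.76 and 10.31 in the controls. BPTF KD 6 lay below every control, and BPTF KD 2 and 5 lay above every control (log2 difference -0.06 ± 0.45 SE, exact permutation p = 0.929). On 1427310_at the labelled tumors ran from 7.23 in BPTF KD 6 to 10.25 in BPTF KD 5, against 8.86, 8.78 and 9.43 in the controls, with 3 below and 2 above every control (-0.27, exact permutation p = 0.714). The dimmest probe set, 1427311_at, gave the largest difference: 4 of 6 labelled tumors were below every control and BPTF KD 2, at 6.86, was above them (-0.62, exact permutation p = 0.238). The last, 1439102_at, differed by 0.03 (exact permutation p = 0.869). A lower Bptf RNA level was therefore not established, and with 3 controls it was not excluded. The arrays also take up Bptf RNA of host cells, and they do not measure BPTF protein. The directions given below follow the tumors' labels. The positions of the probe sets within the transcript were not analysed here.

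**Figure D1:**
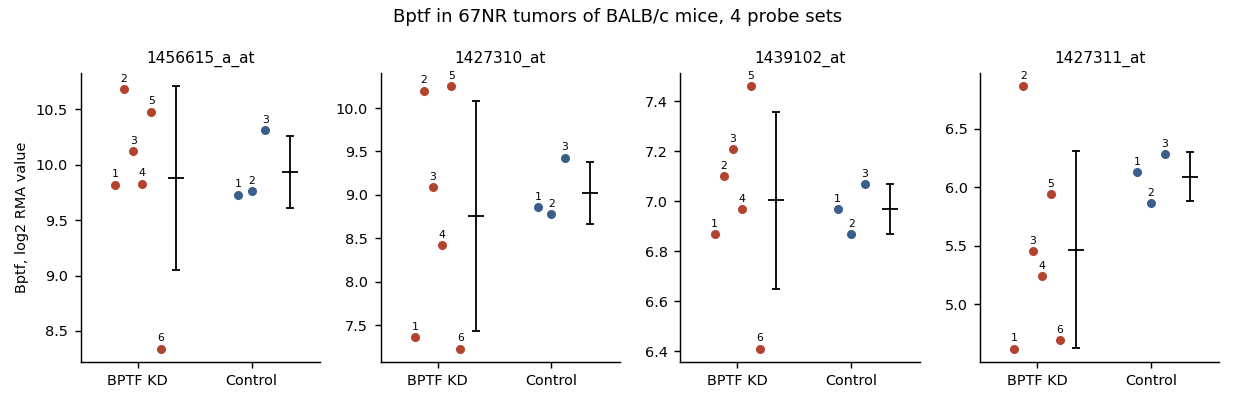
Bptf on its 4 probe sets in each 67NR tumor of BALB/c mice (log2 RMA value, points numbered by replicate), with the group mean and SD beside the points. BPTF KD 6 is below the 3 controls on each probe set, BPTF KD 2 is above them on all 4 and BPTF KD 5 on 3 of the 4.

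Of 11 measured genes for NURF and its partners, 3 were higher and 8 lower with the label (list median -0.18), and 1 was at an unadjusted p under 0.05 on either side. The lower one was Smarca5, the ATPase also known as SNF2H. It had a lowest, median and highest value of 11.15, 11.38 and 11.73 in the labelled tumors, against 11.79, 11.86 and 11.76 in the controls (log2 difference -0.40 ± 0.14 SE, limma adjusted p = 0.609). The groups did not overlap, though BPTF KD 1 came close to the lowest control.

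Across all 12394 genes, 0 (0%) passed an adjusted p of 0.05 by limma, and the smallest adjusted p was 0.397, for H2-Ea. At an unadjusted p under 0.05 there were 542 genes higher (4.37%) and 419 lower (3.38%), or 961 in all (7.75%). All 6 labelled tumors lay above every control for 388 genes (3.13%) and below every control for 351 (2.83%). The median log2 difference over all genes was -0.003. Single genes are therefore described by their values in each tumor, and the shares above are the background for the counts that follow.

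The absence of calls depended on how the spread was estimated. A fit of all 36 tumors, which pools the spread of the 4 comparisons, called 400 genes higher (3.23%) and 207 lower (1.67%). With array weights, which let tumors far from their group count less, 606 were called higher (4.89%) and 516 lower (4.16%). The weights were 0.24 for BPTF KD 1, 0.37 for BPTF KD 3 and 0.36 for BPTF KD 6, against 3.12 for BPTF KD 4 and 1.65 to 3.53 for the controls. Both fits reuse the same tumors, so a call by both is not independent support. The fit of 36 tumors takes the same spread for every group, though the labelled tumors spread more than the controls. With array weights the labelled mean leans most on BPTF KD 4. Whether both fits called a gene is given below for some genes with the smallest p and is not marked for the others, of which several were also called.

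Genes of antigen presentation were frequent among the smallest p values on the higher side. H2-Ea, an alpha chain of MHC class II, had a lowest, median and highest value of 12.54, 13.20 and 14.36 in the labelled tumors, against 10.68, 10.95 and 10.29 in the controls. It was 6.49-fold higher, with no overlap (log2 difference 2.70 ± 0.36 SE, limma adjusted p = 0.397). H2-Eb1, the beta chain that pairs with it, differed by 2.29 and H2-DMb2, part of the chaperone that loads peptide, by 1.15. Tapbpl, which edits the peptides of MHC class I, differed by 1.50. All 4 genes were called by both alternative fits. Of 10 measured MHC class II genes, 10 were at an unadjusted p under 0.05 on the higher side, and 8 had 6 of 6 labelled tumors above every control. Of 17 interferon gamma response genes, 15 were at that p and 15 were free of overlap. Of these, Cxcl9, a chemokine of T and NK cells, differed by 2.37 ± 0.48 SE, and Ubd, a ubiquitin-like modifier outside the list, by 3.36 ± 0.77 SE. Of 15 T cell genes, 11 were at that p, all higher, and of 12 NK cell genes 6 were.

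Outside antigen presentation, the 15 genes with the smallest p on the higher side held genes of several cell types. Ckb, the brain-type creatine kinase, was at 8.36, 8.70 and 9.49 (lowest, median and highest) in the labelled tumors, against 7.67, 7.29 and 7.69 in the controls (1.25 ± 0.25 SE). Myb, a transcription factor of blood progenitors and lymphocytes, was at 5.81, 6.28 and 7.54, against 4.48, 4.79 and 4.91 (1.67 ± 0.34 SE). Hdc, which makes histamine, was at 6.43, 6.69 and 7.31, against 5.67, 5.98 and 5.86 (0.93 ± 0.20 SE). Each of the 3 had its labelled tumors clear of the controls, and each was called by both alternative fits. Cd7, a surface protein of T and NK cells, and Gcsam, a signalling adaptor of germinal center B cells, differed by 0.83 and 0.94. Napsa, which encodes an aspartic protease, differed by 1.00.

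The genes on the lower side came from other processes. Slc40a1, ferroportin, which exports iron from cells and is abundant in macrophages, was at 7.42, 8.87 and 9.49 (lowest, median and highest) in the labelled tumors, against 10.85, 10.95 and 10.62 in the controls. The highest labelled tumor was more than 1 log2 unit below the lowest control (-2.16 ± 0.42 SE, limma adjusted p = 0.500). Ednrb, the endothelin receptor type B, was at 5.46, 5.82 and 6.91, against 7.35, 7.51 and 7.64 (-1.52 ± 0.28 SE). In 5 of the 6 labelled tumors it was at 6.15 or less, with BPTF KD 2 nearest to the controls. Eea1, which tethers early endosomes, was at 9.79, 10.15 and 10.31, against 10.84, 10.85 and 10.78 (-0.71 ± 0.13 SE). These 3 genes had no overlap between the groups and were called by both alternative fits.

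**Figure D2:**
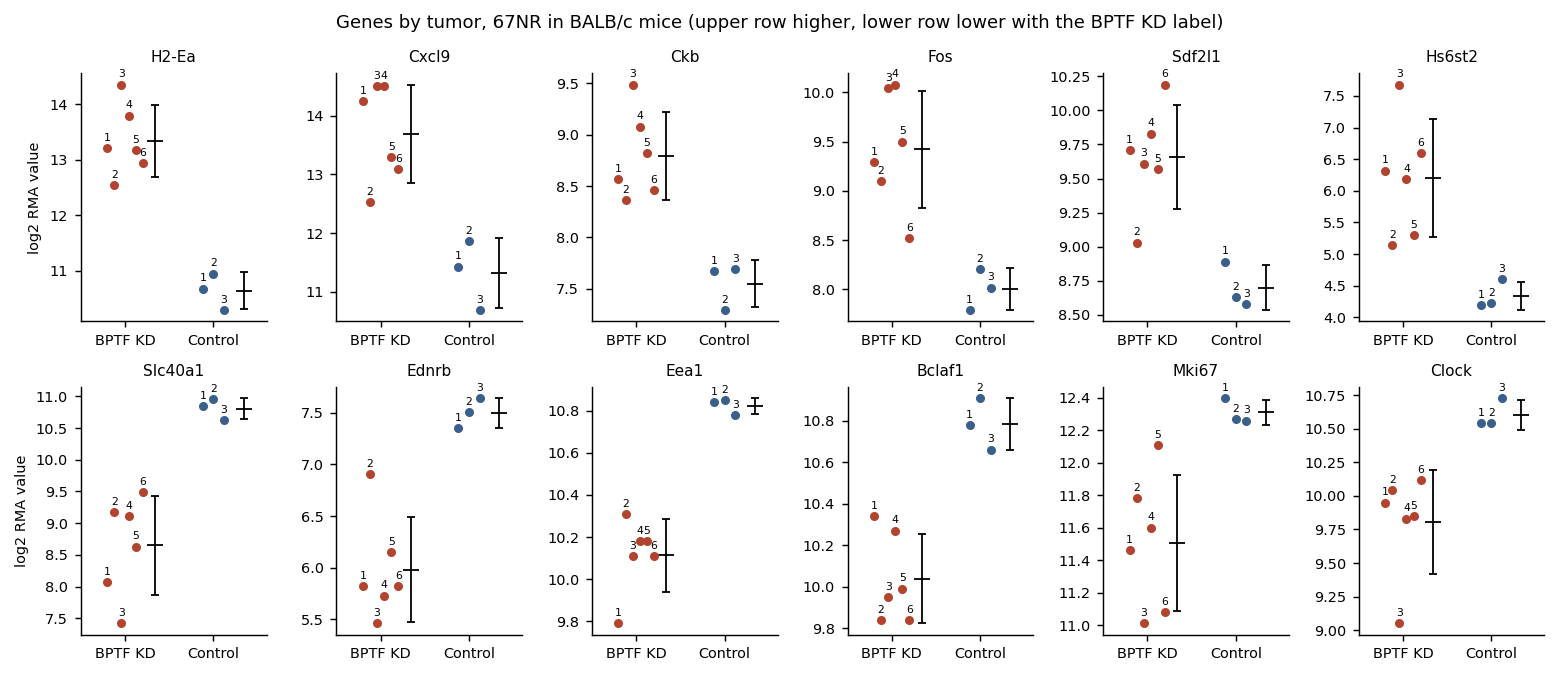
Expression of 12 genes in each 67NR tumor of BALB/c mice (log2 RMA value, points numbered by replicate), with the group mean and SD beside the points and the vertical axis scaled to each gene. In the upper row all 6 labelled tumors are above the 3 controls and in the lower row all 6 are below them.

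Several of the lower genes act on chromatin, RNA or signalling, and their differences were smaller but even across tumors. Bclaf1, a protein of transcription and splicing complexes, was at 9.84, 9.97 and 10.34 (lowest, median and highest) in the labelled tumors, against 10.78, 10.91 and 10.66 in the controls (-0.75 ± 0.15 SE). Ppp1r2, an inhibitor of protein phosphatase 1, was at 10.18, 10.37 and 10.45, against 10.78, 10.96 and 10.92 (-0.54 ± 0.11 SE). Tiparp, a target and repressor of the aryl hydrocarbon receptor, was at 10.25, 10.67 and 10.83, against 11.27, 11.27 and 11.37 (-0.69 ± 0.14 SE). In these 3 genes the labelled tumors spanned less than 1 log2 unit and stayed below the controls. Of the other genes among the 15 with the smallest p, Spin4, of the spindlin family of histone readers, differed by -0.80, Prpf39, a splicing factor, by -0.68, Stau2, which binds double-stranded RNA, by -0.60, and Zxdc, a zinc finger protein, by -0.61. Eml5, a microtubule-associated protein, differed by -0.68 and Fam111a, a protease that acts at replication forks, by -0.76. Chmp4c, an ESCRT subunit of the last step of cell division, differed by -0.98 and Dio2, which activates thyroid hormone, by -0.76. Each of these 8 had 6 of 6 labelled tumors below every control. Dio2, Prpf39 and Fam111a were called with array weights and not in the fit of 36 tumors, and the other 5 were called in both.

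Genes of mitosis were lower as a group. All 24 measured genes of the list had a lower mean in the labelled tumors (list median -0.76, against -0.003 over all genes). Of these, 9 were at an unadjusted p under 0.05 and 8 had no overlap with the controls. The mean of the list was 9.54, 10.29, 8.70, 9.94, 10.30 and 10.05 in the labelled tumors, against 10.51, 10.49 and 10.61 in the controls. BPTF KD 3 was lowest and BPTF KD 1 next, and BPTF KD 2 and 5 came closest to the controls. Mki67, the proliferation antigen Ki-67, was at 11.01, 11.53 and 12.11 (lowest, median and highest), against 12.40, 12.27 and 12.26 (-0.80 ± 0.24 SE). Nek2, a kinase that separates centrosomes, was at 6.28, 7.66 and 8.08, against 8.36, 8.25 and 8.52 (-0.98 ± 0.38 SE). Ccna2, cyclin A2, differed by -0.68 and Kif2c, a kinesin that corrects attachment of chromosomes to the spindle, by -0.69. Smc2, a subunit of condensin, was outside the list and among the 15 lower genes with the smallest p (-0.72 ± 0.17 SE).

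The replication list was lower too, by less. All 23 measured genes had a lower mean in the labelled tumors (list median -0.37), but 1 was at an unadjusted p under 0.05, close to the background. It was Pola1, the catalytic subunit of DNA polymerase alpha, at 8.56, 9.63 and 10.04 (lowest, median and highest), against 10.33, 10.28 and 10.16 (-0.76 ± 0.28 SE). Without BPTF KD 3 the list medians were -0.51 for mitosis and -0.24 for replication, and with BPTF KD 1 and 3 both left out they were -0.47 and -0.18. In 67NR tumors of NSG mice the mitosis median was -0.42, and in 66cl4 tumors of BALB/c mice it was -0.003.

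Promoters of mitosis genes are known for pairing a CCAAT box, bound by NF-Y, with a CHR element, bound by the DREAM and MuvB complexes. The RefSeq promoters (GRCm38.p6, 250 bases before to 50 after each start) were therefore searched on both strands for CCAAT and for the CHR letters TTTGAA and TTTAAA, which can share 1 base with a CCAAT. The list had promoters for 20 of its 24 genes, with 21 windows. CCAAT was in 17 windows (81.0%) and TTTGAA in 15 (71.4%), against 37.1% and 12.9% of the 12567 windows of measured genes, and 37.4% and 17.9% of all 32851 windows of the table. CCAAT together with either form of the CHR was in 15 (71.4%), against 8.22% of the windows of measured genes. In 23 windows of replication genes the pair was in 4 (17.4%). A match is a run of letters and not a measured site. The shares of windows here and below use no value of the tumors, so they do not bear on the levels above. The promoters below are those of the 3 mitosis genes with the smallest p and a single listed start, shown to set their letters beside the levels above. Capitals mark CCAAT and the CHR letters, on either strand. The Mki67 window (chr7:135716330-135716629, minus strand) holds CCAAT 3 times and TTTGAA 2 times, that of Nek2 (chr1:191821223-191821522, plus strand) holds CCAAT and no CHR, and that of Kif2c (chr4:117178723-117179022, minus strand) holds CHR letters and no CCAAT.
Mki67: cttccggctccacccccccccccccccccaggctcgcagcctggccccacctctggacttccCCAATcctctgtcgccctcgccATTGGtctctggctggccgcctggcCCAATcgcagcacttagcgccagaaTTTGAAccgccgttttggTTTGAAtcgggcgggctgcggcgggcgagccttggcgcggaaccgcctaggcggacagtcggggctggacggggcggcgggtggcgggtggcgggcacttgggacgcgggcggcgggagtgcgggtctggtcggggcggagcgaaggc
Nek2: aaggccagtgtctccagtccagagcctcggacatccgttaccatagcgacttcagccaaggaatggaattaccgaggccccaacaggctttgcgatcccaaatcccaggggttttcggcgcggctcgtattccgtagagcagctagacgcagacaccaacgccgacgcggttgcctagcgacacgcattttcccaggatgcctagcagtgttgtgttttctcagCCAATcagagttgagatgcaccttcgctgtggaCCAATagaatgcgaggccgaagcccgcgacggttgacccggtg
Kif2c: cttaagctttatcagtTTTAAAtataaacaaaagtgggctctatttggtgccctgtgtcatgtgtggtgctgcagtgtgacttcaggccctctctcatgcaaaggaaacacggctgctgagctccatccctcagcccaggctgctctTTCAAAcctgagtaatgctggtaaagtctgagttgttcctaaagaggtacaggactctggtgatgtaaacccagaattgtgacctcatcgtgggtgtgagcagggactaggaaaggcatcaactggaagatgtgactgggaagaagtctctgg

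The window of H2-Eb1 (chr17:34305617-34305916, plus strand) is shown beside them as a promoter of a gene on the higher side. MHC class II promoters are known for a set of boxes that recruit CIITA, of which the Y box is a CCAAT on the minus strand. CCAAT was in 5 of 7 windows (71.4%) of 6 matched MHC class II genes, and the H2-Eb1 window holds it once in each orientation.
H2-Eb1: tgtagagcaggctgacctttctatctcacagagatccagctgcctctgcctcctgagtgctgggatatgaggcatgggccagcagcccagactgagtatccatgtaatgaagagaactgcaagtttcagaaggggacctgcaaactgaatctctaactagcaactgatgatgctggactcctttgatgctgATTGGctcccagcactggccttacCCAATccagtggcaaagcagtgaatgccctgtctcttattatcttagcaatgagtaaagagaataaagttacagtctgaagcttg
The letters TTCNNNGAA, where STAT factors bind and which can contain a CHR, were in 5 of 17 windows (29.4%) of the interferon gamma response list, against 6.97% of the windows of measured genes. They were in 0 of the 21 windows of the mitosis list.

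Signalling and stress lists held single genes that stood apart from their list. Fos and Junb, immediate early transcription factors of the AP-1 family, were at 1.42 ± 0.33 SE and 0.44 ± 0.13 SE with all 6 labelled tumors above the controls, while 12 of the 19 genes of their list were lower (list median -0.16). Fos was at 8.52, 9.40 and 10.08 (lowest, median and highest) in the labelled tumors, against 7.79, 8.21 and 8.02 in the controls. Clock, a transcription factor of the circadian cycle, was at 9.05, 9.90 and 10.12, against 10.54, 10.54 and 10.73 (-0.80 ± 0.22 SE), with BPTF KD 3 far below the other 5. It was the single gene of 14 in the clock list at an unadjusted p under 0.05. Pmaip1, which encodes the proapoptotic protein Noxa, differed by 1.08 and Tnfrsf10b, a TRAIL receptor, by -0.47, and the p53 list had 7 of 15 genes higher and 8 lower.

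The unfolded protein response list was slightly higher in each labelled tumor. Its mean ran from 10.66 to 10.98 in the labelled tumors and from 10.61 to 10.64 in the controls (list median 0.14), with 13 of 16 genes higher and 2 at an unadjusted p under 0.05. Those were Sdf2l1, a cofactor of the chaperone BiP, and Edem1, which sends misfolded glycoproteins to degradation. Sdf2l1 was at 9.03, 9.66 and 10.19 (lowest, median and highest), against 8.89, 8.63 and 8.58 (0.96 ± 0.22 SE). The lysosome list ran from 11.04 to 11.53, against 10.96 to 11.02 (list median 0.16), and its gene Ctsz, cathepsin Z, differed by 0.90 ± 0.29 SE with 5 of 6 labelled tumors above the controls. The endosome list was the reverse, with means of 9.70 to 9.91 in the labelled tumors and 9.97 to 9.99 in the controls. Eea1 and Snx2, a sorting nexin of the retromer (-0.39 ± 0.13 SE), were its genes at an unadjusted p under 0.05.

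Most metabolic and housekeeping lists showed little. The medians were -0.01 for 26 respiratory chain genes, 0.02 for 17 ribosomal protein genes, 0.06 for 20 genes of hypoxia and glycolysis, -0.06 for 20 proteasome genes and -0.01 for 14 genes of iron handling. In the iron list Slc40a1 was the single gene at an unadjusted p under 0.05. Egln3, a prolyl hydroxylase of the hypoxia response, was at 8.60, 9.29 and 10.47 (lowest, median and highest), against 10.35, 10.55 and 10.25 (-1.07 ± 0.36 SE), with BPTF KD 6 among the controls. Psmb5, a catalytic proteasome subunit that Psmb8 replaces in the immunoproteasome, was at 0.47 ± 0.15 SE, and Psmb8 itself was at 1.66 ± 0.37 SE. Ribosome biogenesis genes had a median of -0.26, which was -0.09 without BPTF KD 3, and Gnl3, nucleostemin, differed by -0.35. The list means of hypoxia and of cholesterol synthesis were farthest from the controls in BPTF KD 3, at 10.73 and 7.84, against 9.75 to 9.84 and 8.67 to 9.01 in the controls.

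Matrix genes differed strongly among the labelled tumors. Fibroblast genes had a median of 0.74, which was 0.42 without BPTF KD 1 and 0.20 without BPTF KD 1 and 3. Small leucine-rich proteoglycans and elastic fiber genes had 0.58, and -0.0008 without those tumors, and collagens had 0.28 and 0.06. In 67NR tumors of NSG mice the medians of these lists were 0.66, 1.00 and 0.69, and in 66cl4 tumors of BALB/c mice they were 0.19, -0.33 and -0.31. Ogn, of the proteoglycan list, was 2.38 higher in NSG tumors labelled BPTF KD than in their controls (limma adjusted p = 0.00583). Bgn, biglycan, was at 8.36, 10.33 and 11.95 (lowest, median and highest) in the labelled tumors, against 8.58, 8.55 and 8.19 in the controls (1.71 ± 0.63 SE), and BPTF KD 6 lay within the controls. Timp3, an inhibitor of matrix metalloproteinases bound to the matrix, was at 7.71, 9.24 and 10.38, against 7.86, 8.09 and 7.46 (1.43 ± 0.50 SE), again with BPTF KD 6 within the controls. Mmp3 and Mmp10, stromelysins, differed by -1.06 ± 0.43 SE and -2.23 ± 1.03 SE, and Mmp10 was above every control in BPTF KD 6. Mmp19 differed by 0.46 ± 0.14 SE with no overlap.

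Heparan sulfate is a sulfated sugar chain of cell surface and matrix proteoglycans that binds growth factors and chemokines. Of 26 measured genes of its synthesis and breakdown, 14 were higher and 12 lower (list median 0.16), with 3 and 4 at an unadjusted p under 0.05. Hs6st2, which adds sulfate groups to the chain, was at 5.14, 6.25 and 7.68 (lowest, median and highest) in the labelled tumors, against 4.19, 4.23 and 4.60 in the controls (1.86 ± 0.49 SE). Idua, a lysosomal enzyme that degrades the chain, differed by 0.47 ± 0.16 SE. Extl2, which can stop elongation of the chain, was at 8.72, 9.01 and 9.29, against 9.56, 9.61 and 9.33 (-0.51 ± 0.15 SE), and Ndst4, a deacetylase and sulfotransferase, differed by -0.41 ± 0.12 SE. The labelled tumors did not overlap the controls for any of these 4. Detection calls were not used here, and whether Hs6st2 was above background in the controls was not tested.

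Host cell lists were carried by different tumors. Skeletal muscle genes had a list mean of 5.74, 5.90, 11.03, 7.14, 5.62 and 5.85 in the labelled tumors, against 5.83, 5.72 and 5.67 in the controls. BPTF KD 3 and, less so, BPTF KD 4 were high, and none of the 18 genes was at an unadjusted p under 0.05. Tnnc2, fast troponin C, was at 13.27 in BPTF KD 3, 7.91 in BPTF KD 4 and 4.43 to 5.07 in the other 4. Without BPTF KD 3 the list median was 0.30, against 1.23 with it. The muscle RNA lay in the tumor with the lowest mitosis mean and the highest T cell mean, and its part in those values was not tested.

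Adipocyte genes were higher by a median of 0.54, with list means of 9.05 in BPTF KD 1, 8.93 in BPTF KD 5 and 8.26 in BPTF KD 6, and 7.24 to 8.20 in the other 3 labelled tumors, against 7.54, 6.91 and 7.68 in the controls. Lpl, lipoprotein lipase, was at 8.32, 11.34 and 11.77 (lowest, median and highest), against 8.79, 8.15 and 8.96 (2.07 ± 0.72 SE), and BPTF KD 2 lay among the controls. Adipoq, which fat cells secrete as adiponectin, ran from 3.47 to 11.57 in the labelled tumors and from 3.99 to 7.88 in the controls, and its difference of 1.54 ± 1.72 SE was smaller than its error.

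Markers of macrophages moved in both directions. Of 13 measured genes, 9 were higher and 4 lower, with 2 at an unadjusted p under 0.05 on each side. Those higher were Adgre1, the macrophage marker F4/80, and C1qb, a chain of complement C1q, both with 6 of 6 labelled tumors above every control. Adgre1 was at 10.77 to 12.48 in the labelled tumors and at 10.29 to 10.58 in the controls (0.90 ± 0.35 SE), and C1qb at 13.02 to 13.92 and at 12.76 to 12.89 (0.48 ± 0.20 SE). Those lower were Mrc1, the mannose receptor CD206, and Cd163, a scavenger receptor for hemoglobin. Mrc1 was at 11.75, 12.06 and 12.57 (lowest, median and highest) in the labelled tumors, against 12.77, 12.50 and 12.68 in the controls (-0.56 ± 0.18 SE). Cd163 was at 7.55, 8.75 and 10.15, against 9.91, 9.77 and 10.10 (-1.23 ± 0.47 SE), with BPTF KD 2 above every control. Vsig4, a complement receptor of resident macrophages that is outside the list, was at 5.26, 7.96 and 8.98, against 9.83, 9.96 and 8.98 (-1.93 ± 0.69 SE). Arg1, arginase of alternatively activated macrophages and also outside the list, was high in BPTF KD 1 and 3 (10.77 and 11.46) and at 5.56 to 8.69 in the other 4, against 6.43 to 7.42 in the controls. In 67NR tumors of NSG mice Arg1 was high under both labels, at 9.57 to 10.78 in labelled tumors and 9.49 to 10.82 in controls. Complement genes were higher, 12 of 13 with a median of 0.61, and 6 were at an unadjusted p under 0.05. C1ra, a protease of the first complement complex, differed by 1.50 ± 0.34 SE and Serping1, which inhibits that protease, by 2.05 ± 0.69 SE, each with no overlap.

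Mast cell proteases were among the largest differences. Mcpt2 was at 11.19, 12.16 and 11.42 in BPTF KD 1, 3 and 6 and at 6.39 to 7.15 in the other 3, against 5.55, 5.94 and 5.63 in the controls (3.41 ± 1.42 SE). Cma1, mast cell chymase, was at 7.75, 9.26 and 11.35 (lowest, median and highest), against 6.36, 6.84 and 7.59 (2.70 ± 0.75 SE). Both were above every control in 6 of 6 labelled tumors. Jchain, which joins the antibodies of plasma cells, was at 10.76 in BPTF KD 6 and at 4.15 to 7.55 in the other 5. Cma1 and Jchain were singled out after their values were seen.

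**Figure D3:**
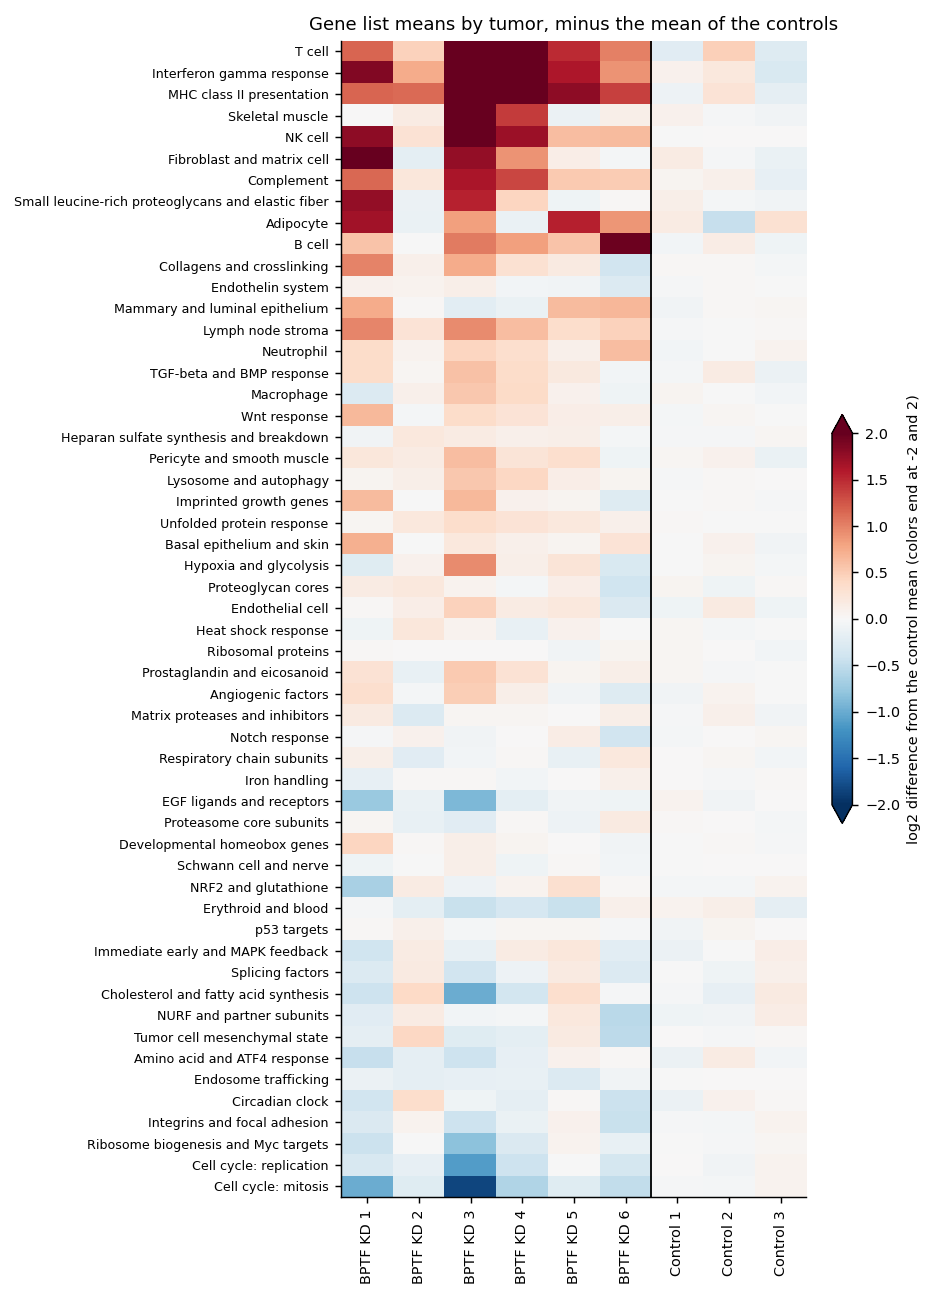
Mean log2 value of 54 gene lists in each tumor minus the mean of the 3 controls, sorted by the median difference of the list's genes (red higher, blue lower, colors end at -2 and 2). The top rows are deep red in BPTF KD 3 and 4 and paler in BPTF KD 2, the muscle row is red in BPTF KD 3 and 4, and the mitosis row is blue in all 6 labelled tumors.

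The labelled tumors differed far more among themselves than the controls did. The mean Euclidean distance over all genes was 80.6 between labelled tumors and 30.5 between controls, a ratio of 2.64. The difference of these mean distances, and not their ratio, was tested (exact permutation p = 0.0119, the smallest that 84 splits allow, two-sided). The median SD of a gene was 0.337 among the labelled tumors and 0.140 among the controls, and it was larger among the labelled tumors for 86.2% of genes. An SD over 1 was seen for 644 genes among the labelled tumors and 16 among the controls. The groups hold 6 and 3 tumors. Leaving out 1 tumor gave ratios of 2.43 to 3.04. The exact permutation p of the difference was 0.0536 over 56 splits without BPTF KD 1 and also without BPTF KD 6. With both BPTF KD 1 and 3 left out the ratio was 2.05 (exact permutation p of the difference 0.0286, the smallest that 35 splits allow).

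**Figure D4:**
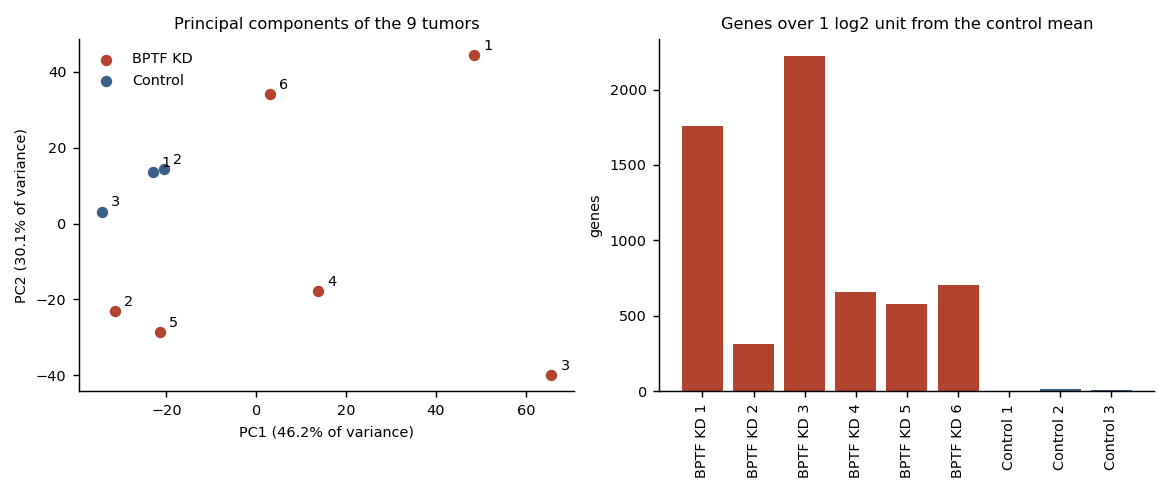
Left, the first 2 principal components of the 9 tumors over 12394 genes (points numbered by replicate). Right, the number of genes more than 1 log2 unit from the control mean in each tumor, 316 to 2221 in the labelled tumors and 4 to 12 in the controls.

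The first principal component held 46.2% of the variance and set BPTF KD 3 (65.7) and BPTF KD 1 (48.5) against the rest. BPTF KD 4 was at 13.8 and BPTF KD 6 at 2.95, and BPTF KD 5 and 2, at -21.4 and -31.4, lay among the controls, at -34.5 to -20.5. The second component held 30.1% and parted BPTF KD 1 and 3 from each other, with BPTF KD 1 at 44.3 and BPTF KD 6 at 34.1 on one side and BPTF KD 3 at -40.0 on the other. BPTF KD 1 and 6 also had the lowest array medians, 7.03 and 7.04, and the lowest values of Bptf on 1427310_at. The part of array quality in this component was not tested.

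Genes of the first component, named after their values were seen, set BPTF KD 1 and 3 apart by several log2 units. Rpl39l, a ribosomal protein paralog best known from the testis, was at 14.17 in BPTF KD 1 and 12.29 in BPTF KD 3, and at 6.07 to 7.60 in the other 4 labelled tumors, against 7.48, 7.82 and 6.29 in the controls. Matn2, a matrix filament protein, was at 11.07 and 8.82 in the same tumors and at 4.18 to 5.26 in the other 4, against 4.95 to 5.13 in the controls. Ogn, the proteoglycan osteoglycin, was at 13.38 and 12.02, and at 5.84 to 7.80 in the other 4, against 7.32 to 7.91 in the controls. Lox, which crosslinks collagen, and Efemp1, a fibulin, had the same 2 tumors on top, at 11.65 and 11.55 and at 11.18 and 10.51.

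The same 2 tumors were low in other genes. Plet1, an epithelial surface protein, was at 5.93 and 7.34 in BPTF KD 1 and 3 and at 9.99 to 11.71 in the other 4, against 11.12, 11.43 and 11.72 in the controls. Sgk2, a serum-regulated kinase, was at 6.10 and 5.44, against 9.58 to 10.51 in the controls, and the other 4 labelled tumors lay between, at 8.09 to 9.11. Dach2, a transcription cofactor, was at 4.39 and 3.86 there, against 7.98 to 8.59 in the controls. Csn3, kappa-casein of milk, and Hao1, which oxidizes glycolate, were lowest in BPTF KD 3, at 4.83 and 4.78, against 11.28 to 11.45 and 10.77 to 11.11 in the controls.

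In NSG mice, 67NR tumors of both labels had levels like those of BPTF KD 1 and 3 for part of these genes. Rpl39l was at 13.44 to 14.09 in 6 NSG tumors labelled BPTF KD and at 12.50 to 13.57 in 3 NSG controls, and Matn2 at 11.35 to 11.82 and at 9.01 to 11.20. Ogn was at 12.67 to 14.00 and at 10.56 to 11.72 there. In 66cl4 tumors Rpl39l was low in both hosts, at 6.08 to 8.13 in the labelled tumors and at 6.04 to 7.34 in the controls, while Ogn was high, at 13.64 to 14.39 and at 13.69 to 14.23. Plet1 was at 6.02 to 7.24 in NSG tumors of 67NR labelled BPTF KD and at 7.75 to 11.49 in their controls. By Rpl39l, Matn2 and Ogn, BPTF KD 2, 4, 5 and 6 and the 3 controls of BALB/c mice stood on one side and BPTF KD 1 and 3 with the 67NR tumors of NSG mice on the other.

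**Figure D5:**
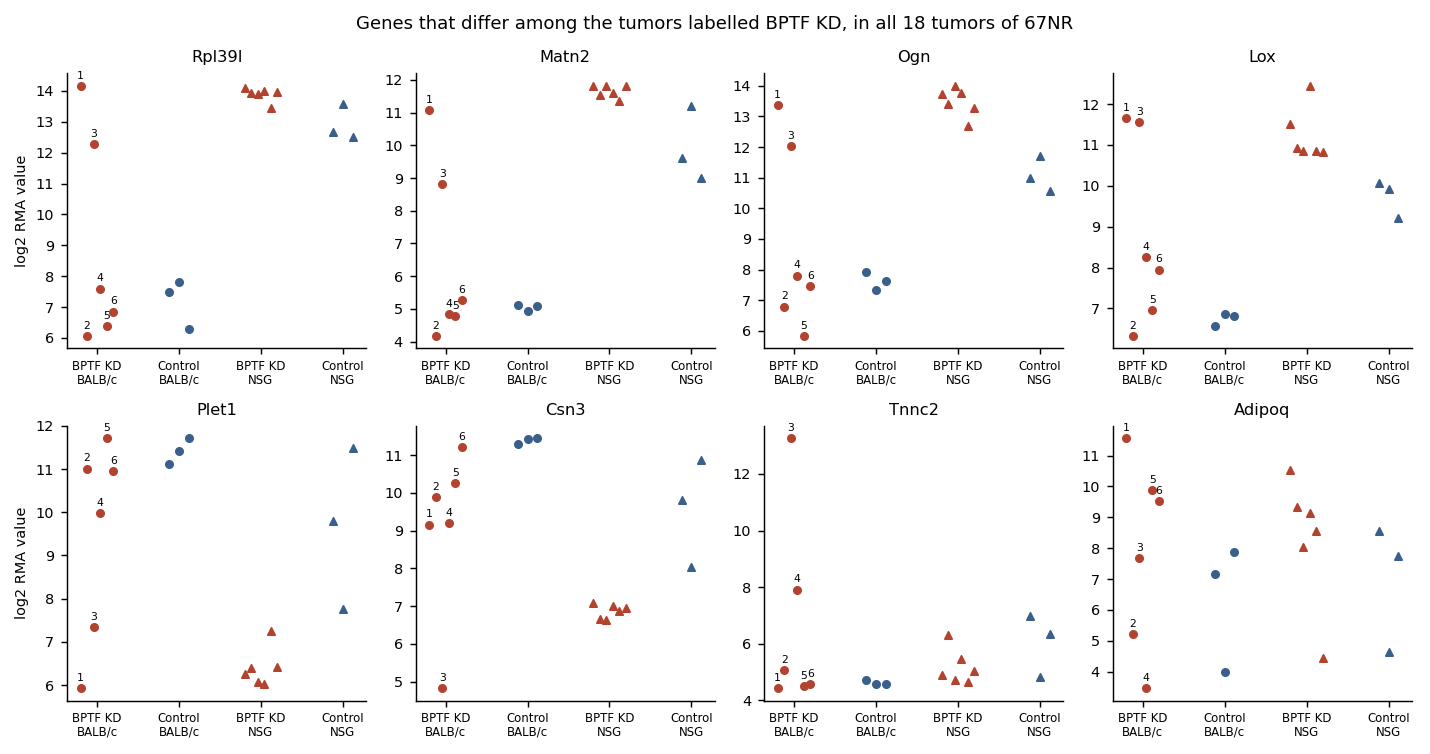
Expression of 8 genes that differ among the labelled tumors, in all 18 tumors of 67NR (log2 RMA value, circles BALB/c, triangles NSG, red BPTF KD, blue Control, BALB/c tumors labelled BPTF KD numbered by replicate). BPTF KD 1 and 3 are near the NSG tumors for Rpl39l, Matn2, Ogn and Lox and near the NSG tumors labelled BPTF KD for Plet1, whose NSG controls lie at 7.75 to 11.49. Tnnc2 is high in BPTF KD 3 and Adipoq is spread in each group.

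The effect of the label in BALB/c mice was set against that in NSG mice by an interaction term over 18 tumors of 67NR. No gene passed (0%, smallest adjusted p 0.0637 by limma), and 422 genes were higher in BALB/c (3.4%) and 432 lower (3.49%) at an unadjusted p under 0.05. H2-Ea differed by 0.13 between labels in NSG mice and by 2.70 in BALB/c mice, a difference of 2.57 ± 0.43 SE (limma adjusted p = 0.0637). Hdc differed by -0.48 in NSG mice and 0.93 in BALB/c mice, a difference of 1.41 ± 0.23 SE at the same adjusted p. H2-Ea was low in NSG mice under both labels, at 6.48 to 7.27 in labelled tumors and 6.65 to 7.08 in controls. The BALB/c controls were at 10.29 to 10.95. Whether H2-Ea can respond to the label at all in the NSG strain was not tested. Mast cell chymase had a difference of 4.23 ± 0.96 SE (limma adjusted p = 0.283). Several lower genes were near 0 or higher in NSG mice, with Ppp1r2 at 0.10, Bclaf1 at 0.06, Tiparp at 0.28 and Spin4 at 0.44. Slc40a1 was low in both hosts. It was at 6.56 to 6.94 in NSG tumors labelled BPTF KD and at 8.36 to 8.75 in NSG controls (-1.86, limma adjusted p = 0.000198), with a host difference of -0.30 ± 0.45 SE. Without BPTF KD 1 the interaction called 16 genes, without BPTF KD 2 it called 2, and without BPTF KD 3 it called 4.

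Against 66cl4 tumors of BALB/c mice, the interaction also gave 0 genes (0%, smallest adjusted p 0.485 by limma), with 507 higher in 67NR (4.09%) and 688 lower (5.55%) at an unadjusted p under 0.05. Ednrb was at -1.52 in 67NR and -1.18 in 66cl4 and Cd163 at -1.23 and -1.02. Slc40a1 was at -2.16 and -0.34. Of the lists, interferon gamma response had medians of 1.80 in 67NR and 0.93 in 66cl4, complement 0.61 and 0.13, mitosis -0.76 and -0.003, and proteoglycans with elastic fiber genes 0.58 and -0.33. Bptf was at -0.06 in 67NR and -1.08 in 66cl4 on its brightest probe set.

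On 1456615_a_at, its brightest probe set, Bptf varied by more than 2 log2 units among the 6 labelled tumors. Its level there was set against the mean of each of 53 other lists across these tumors. BPTF KD 4 and 1 were nearly equal, at 9.83 and 9.82. The other Bptf probe sets rank the tumors in other orders and were not used for these relations. No relation passed after adjustment over the 53 lists. The Notch list had the largest Pearson r (0.945, exact permutation p = 0.0181, adjusted p = 0.221). By the p of Pearson r, the respiratory chain came nearest to passing (Pearson r = -0.899, exact permutation p = 0.00139, adjusted p = 0.0736, and Spearman rho = -1, exact permutation p = 0.00278, adjusted p = 0.0736). Without the 2 tumors farthest from the median Bptf level r was -0.937. By rank the circadian clock list was as near with the opposite sign (Spearman rho = 1, exact permutation p = 0.00278, adjusted p = 0.0736, and Pearson r = 0.810, exact permutation p = 0.0403, adjusted p = 0.267), with r at 0.864 without the same 2 tumors. The range of the respiratory chain mean was small, 11.81 to 12.25, and BPTF KD 6 and BPTF KD 1, the highest tumors, had the lowest array medians.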

How the data were processed

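After necrotic tissue had been removed, total RNA of each frozen tumor was extracted and 500 ng was labelled for 1 Affymetrix mouse array. The authors deposited log2 values, normalized and summarized by RMA (named in the submitters' processing notes, its version not given in the sources used here). No further normalization or filter was applied. There were 22690 probe sets, 20393 with a single gene symbol, 691 with several and 1606 with none. RefSeq names found by Entrez ID replaced 20364 symbols. A gene took the single-symbol probe set that was brightest on average across 36 tumors. This left 12394 genes, among them 1189 on _x_at or _s_at probe sets, which related transcripts can also bind. The number of arrays limits the precision.

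The 6 labelled tumors and the 3 controls were compared with limma 3.58.1 (R 4.3.3). P values were adjusted by Benjamini-Hochberg across all genes, and a gene was called at 0.05. Host and cell line effects were interaction terms fitted to 18 tumors. A single measure got an exact permutation test over the 84 splits. The procedure was tested on simulated data. Tables and figures were made with matplotlib 3.10.9, scipy 1.17.1, pandas 2.3.3 and numpy 2.4.6 under Python 3.11.15. Promoters were RefSeq windows of GRCm38.p6.

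The comparison, the 54 gene lists and the naming rule were chosen with earlier results of these data known. The rule took Bptf, the 15 genes with the smallest p and the 10 with the largest difference in each direction, up to 4 genes per list with the smallest p, the 12 genes with the largest SD among labelled tumors, and the 5 smallest p per interaction and direction. The comparison was repeated with 36 tumors in a single fit, with the t-test of the study's methods, without the dimmest 25% of genes, after quantile normalization, after taking away array medians, with the replicate number as a block, over all probe sets, with probe sets of a gene averaged, with array weights, with trend and robust options of eBayes, and with each tumor left out. Leaving out BPTF KD 1 and 3 together was added after the data were seen.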

Additional observations from a re-analysis of the deposited data

Results flagged for a closer look

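Among the 6 labelled tumors, a tumor lay far from the other 5 in 11 of 146 groups of 6 values tested, measured as the gap to the nearest tumor as a share of the whole range. Chance flags about 1 in 20 groups of independent, unselected values. Many of these genes were named for their values in the same tumors, and some lists share genes. That rate is therefore no benchmark for the count here. BPTF KD 3 was set apart most often. It was highest for the mean of skeletal muscle genes (share 0.718) and for Idua (0.656), and lowest for the mean of replication genes (0.636), Kif2c (0.765), Clock (0.729), Csn3 (0.679) and Ppp1r2 (0.63). BPTF KD 2 was lowest for Cebpa (0.669), a transcription factor of fat and myeloid cells, and highest for Ndst4 (0.763). BPTF KD 1 was highest for Gnl3 (0.683), and BPTF KD 6 was lowest for Bptf itself (0.632).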

How the results depend on the processing

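The counts of calls depended on the model of the spread. Against 0 genes at an adjusted p of 0.05, the fit of 36 tumors called 607 and array weights called 1122, and each of the other alternatives, among them leaving out each tumor in turn, called 0. The methods' t-test had 890 genes at an unadjusted p under 0.05 and 0 after adjustment, against 961 by limma. That unadjusted count was 2512 in the fit of 36 tumors, 3372 with array weights and 1773 of 22626 probe sets. Leaving out 1 tumor gave 434 (without Control 3) to 1329 (without BPTF KD 2), with 476 without Control 1 and 485 without Control 2. Genes called for a host difference numbered 0, 27 in the fit of 36 tumors and 0 to 16 with 1 tumor left out, and for a cell line difference 0, 1 in that fit and 0 to 1 (without BPTF KD 6).

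The ratio of spreads was 2.43 (without Control 1) to 3.04 (without Control 3). The exact permutation p of the difference of mean distances was 0.0536 over 56 splits without BPTF KD 1 and without BPTF KD 6. The sign of the Bptf difference was not stable. On 1456615_a_at it was -0.22 (without BPTF KD 2) to 0.25 (without BPTF KD 6), and 0.10 with array weights. On 1427310_at it was -0.56 to 0.041, and 0.0017 without BPTF KD 1 and 3, and on 1439102_at it was -0.058 to 0.15. Without BPTF KD 1 and 3, Rpl39l was at -0.47, Ogn at -0.65, Matn2 at -0.30 and Arg1 at -0.22. Adipoq was at -0.14 with array weights.

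Deviations of tumors with the same replicate number correlated at 0.26, -0.45 and -0.19 for numbers 1, 2 and 3. Control 3 gave 0.53 with BPTF KD 2 and -0.41 with BPTF KD 1, pairs with unlike numbers. These correlations therefore cannot decide whether the numbers mark a pairing or a shared batch. With the number as a block, 0 genes were called, 716 were at an unadjusted p under 0.05, and Bptf was at 0.27. Detection calls were not used, so differences of dim genes may lie near background.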

Other observations

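Further single genes of the naming rule were higher with the label without passing the adjusted threshold. Cxcl13, a chemokine that draws B cells, was at 7.58, 10.01 and 13.00 (lowest, median and highest) in the labelled tumors, against 5.93, 7.27 and 6.28 in the controls (log2 difference 3.66 ± 0.95 SE). Every labelled tumor was above every control. Satb1, a chromatin organizer of T cells, was at 5.73, 7.31 and 8.93, against 5.91, 5.41 and 6.01 (1.59 ± 0.61 SE), and here the groups overlapped. Vwf, von Willebrand factor of endothelial cells, differed by 1.11 ± 0.37 SE with no overlap, while its list of 15 endothelial genes had 9 higher and 6 lower (list median 0.03).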
